A study of Mus musculus with 16 samples.

Results

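In late wild-type (WT) T helper 2 (Th2) cells, 492 regions carried acetylation of histone H3 at lysine 27 (H3K27ac) that no library of any other group held as an enriched island. They were selected by merging the H3K27ac islands of all 8 lists where these overlapped or touched. A region was kept if both late WT lists had an island in it and none of the other 6 lists had. The 492 regions are 1.37% of the 35909 merged regions and 2.07% of the 23806 regions that both late WT lists held. The number depended on the late WT replicate 1 list, without which 1451 regions met the rule.

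H3K27ac is deposited by the acetyltransferases p300 and CBP and marks active promoters and enhancers. DNase-seq reads the same elements another way: an active enhancer bound by transcription factors loses its nucleosome and is cut by DNase I, while the flanking nucleosomes carry the acetyl mark. In differentiating Th2 cells such elements are set up by STAT6 and GATA3, and Bcl11b, a zinc finger factor of the T lineage, is the gene deleted here.

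The cells were CD4 T cells of C57BL/6 mice with Bcl11b[fl/fl] alleles and CreERT2, a Cre that 4-hydroxytamoxifen (4-OHT) activates. Late Bcl11b knockout (KO) cells spent 4 days in Th2 culture, rested 1 day with IL-2 and spent 4 further days in Th2 culture with 4-OHT. Late WT cells went through the same cultures without 4-OHT. Early KO cells were taken after a single Th2 culture of 4 days in which 4-OHT was present, and early WT cells after the same culture free of it. Every group, WT included, carried the floxed alleles and CreERT2, and no WT cells received 4-OHT, so deletion and exposure to 4-OHT cannot be told apart. By the labels the starting cells were naive, yet a sort for CD4+CD44high is named as well. Cell type markers were not checked by gene, as no annotation of the build of these lists, mm9, was used here, so the regions are given by position. Coordinates are those of mm9, counted from 1.

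Each assay had 8 libraries, 2 per group, and each library came as a list of islands with a score and no read counts. The H3K27ac lists held 26548 to 32112 islands over 100.9 to 111.7 Mb, and the DNase lists 17397 to 39736 islands over 25.9 to 66.8 Mb. The sequencing depth is unknown, and the absence of an island is a statement about the list alone. Within groups, replicates shared 70.3% to 78.0% of the bases covered by either list for H3K27ac, and 45.7% to 53.9% for DNase.

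The regions were narrow and lay low in the late WT lists. Their median width was 2200 bp (range 600 to 6800), against 3200 bp over all merged regions and 4600 bp over the 18384 regions found in all 8 lists. By the authors' island score, their median percentile within the list was 9.17 in late WT replicate 1 (range 0.0282 to 49.4). It was 18.9 in late WT replicate 2 (range 0.119 to 52.1). Regions found in all 8 lists had median percentiles of 63.3 and 68.1 in those lists. Both late WT percentiles were under 25 in 352 of the 492 regions and above 25 in 31. In these pooled cells, fewer cells carrying the mark and less of the mark per cell cannot be told apart.

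The replicates ranked the regions alike in part, with Pearson's r of 0.667 and Spearman's rho of 0.579 over the 492 regions, which share their libraries. In 431 regions the percentile was higher in replicate 2, whose list is the longer of the pair, with 30676 islands against 26611. In 490 regions each late WT list had a single island.

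**Figure D1:**
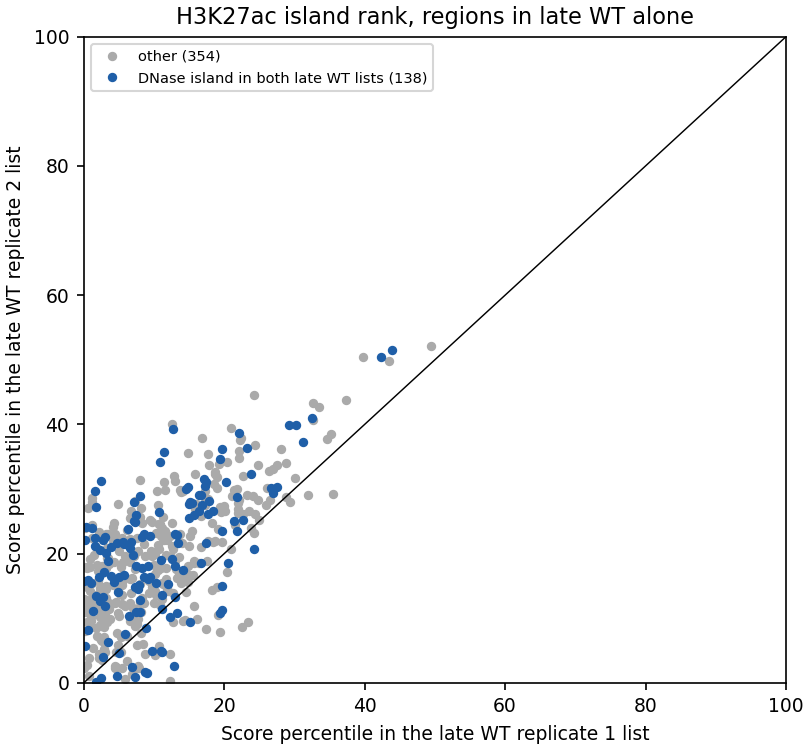
Score percentile of each of the 492 regions within the H3K27ac list of late WT replicate 1 (x axis) and of late WT replicate 2 (y axis), with a line of equality. Blue points are the 138 regions with a DNase island in both late WT lists and grey points the other 354. Nearly all points lie in the lower left, 431 above the line, and blue points are spread through the grey ones.

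The plot of score percentiles shows no region in the upper part of both lists. The highest was chr13:113864201-113868600, at percentiles 49.4 and 52.1 in late WT. It had a neighbour of the same kind, chr13:113876801-113879000, at 42.3 and 50.4. Between them in rank came chr17:71879601-71882200 at 43.9 and 51.5 and chr6:41890801-41895000 at 43.5 and 49.8, and after them chr4:104537201-104541000 at 39.8 and 50.4. The widest region, chr9:81817001-81823800, was 6800 bp wide and stood at percentiles 12.6 and 40.1, so width and rank did not go together there.

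At the other end, chr6:5205801-5206600 was 800 bp wide and stood at percentiles 0.735 and 1.05. chr12:17615601-17618200 stood at 1.68 and 0.119. Just outside the rule lay 335 regions with an island in both late WT lists and in 1 other list. The other list was late KO replicate 1 for 99 and replicate 2 for 88 of these, early KO for 48 and 4, and early WT for 33 and 63. The percentile in that other list had a median of 6.16 (range 0.0405 to 30.7), and the medians in the late WT lists were 10.9 and 20.8. The nearest miss, chr3:51241601-51244600, stood at 28.9 and 37.4 in the late WT lists and was left out by an island at percentile 0.04 in early WT replicate 2. chr11:78559001-78561400 stood at 17.3 and 30.6 in late WT and was left out by an island at percentile 0.07 in late KO replicate 1. The border of the set thus ran through islands at the foot of single lists.

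Most of the regions had acetylated chromatin nearby in the other groups. The nearest island of any of the other 6 lists was a median of 7000 bp away (quartiles 3000 and 16650). It lay within 2 kb for 93 regions, within 10 kb for 303 and within 50 kb for 452. The other 40 regions (8.13%) had no such island within 50 kb. The most isolated region, singled out after its values were seen, was chr8:51904201-51906200, with 2690.2 kb to the nearest island of the other groups. Next came chr13:116601201-116605800, with 700.4 kb.

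H3K27ac in the 25 kb on either side of the regions, the regions themselves left out, also differed between groups. The mean covered length there was 5.90 and 5.24 kb in the late KO lists. It was 6.49 and 6.55 kb in late WT, 4.56 and 4.66 kb in early KO, and 4.69 and 4.45 kb in early WT. Late WT was the highest of the 4 groups, both late KO lists lay between it and the early lists, and the late KO and late WT values did not overlap. The choosing group was also highest around the regions of each other group alone, with 5.84 and 5.16 kb in late KO for the late KO set, 4.53 and 4.67 kb in early KO for the early KO set, and 8.55 and 8.09 kb in early WT for the early WT set. Around all merged regions the same means were 6.11 and 5.51 kb in late KO, with 5.61 and 5.65 kb in late WT, 5.70 and 5.93 kb in early KO, and 6.02 and 5.74 kb in early WT, with late WT among the lowest. The flanks belong to the libraries that chose the regions, so these values are a description and were not tested.

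**Figure D2:**
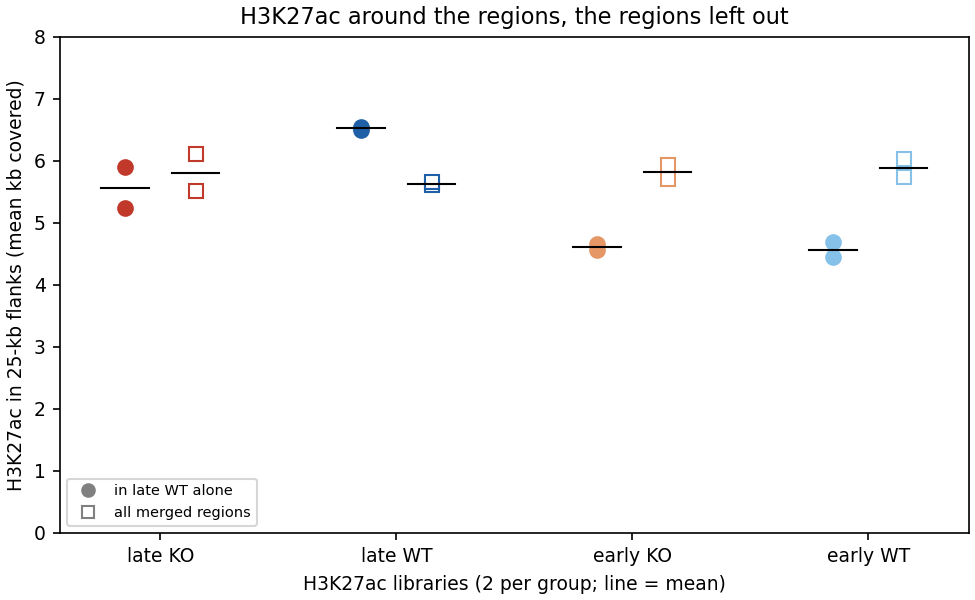
Mean H3K27ac-covered length (kb, y axis) in the 25 kb on each side of the regions, for each H3K27ac library by group (x axis). Filled circles are the 492 regions, open squares all 35909 merged regions, and lines are means of 2 libraries. Circles are highest in late WT (6.49 and 6.55 kb) and lowest in the early groups (4.45 to 4.69 kb).

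Several of the highest regions showed the order seen in the plot of flanking H3K27ac. Beside chr13:113864201-113868600, the flanks held 10.6 and 14.2 kb of H3K27ac in late KO, against 18.6 and 18.2 kb in late WT. They held 4.0 and 5.0 kb in early KO and 4.4 and 2.4 kb in early WT. These flanks take in the member chr13:113876801-113879000, which the rule set as late WT alone. Beside chr4:104537201-104541000, the flanks held 7.2 and 5.0 kb in late KO, with 10.2 and 10 kb in late WT, 2.4 and 1.8 kb in early KO, and none in early WT. In both neighbourhoods the late WT lists were the highest and late KO was above either early group. chr13:17769601-17775600, a region 6000 bp wide, did not follow the order, with 17.2 and 14.2 kb in late KO against 15.2 and 14.6 kb in late WT. Nor did chr17:71879601-71882200, with 4.4 and 4.6 kb in late KO and 4.8 and 4.6 kb in early WT. chr1:171978401-171981800 had 3.6 and 3.8 kb in late KO but 5.6 and 5.0 kb in early WT. chr15:81569001-81572200 had 9.2 and 8.0 kb in late KO but 10.4 and 11.4 kb in early KO. chr16:49151601-49154400 stood alone, with no island in the flanks in any of the 8 lists.

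The regions were scattered. Of the 492, 412 had no other member with its centre within 100 kb, 56 formed pairs and 24 fell into 7 runs of 3 to 5. The longest run, chr14:21955601-22113200, held 5 regions. Its H3K27ac islands covered 27.8 and 20.4 kb in late KO, against 49.4 and 45.0 kb in late WT, with 15.6 and 15.6 kb in early KO and 19.0 and 17.4 kb in early WT. With the 5 regions left out, late WT still covered 36.0 and 32.8 kb there. So the late WT lists held more H3K27ac in this stretch, also outside the regions that the rule chose. Not every run showed this. Outside the members, chr14:68499001-68570600 had 7.4 and 7.4 kb in late KO against 6.8 and 5.8 kb in late WT, with 8.6 and 9.4 kb in early KO and 1.8 and 1.8 kb in early WT. Outside its members, chr6:144532201-144682200 had 16.6 and 13.8 kb in late KO against 19.6 and 18.4 kb in late WT, but 21.2 and 19.2 kb in early KO.

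The run at chr2:131201801-131311800 held 4 regions, and its H3K27ac covered 24.0 and 23.2 kb in late KO against 46.4 and 42.2 kb in late WT, of which 34.8 and 36.4 kb lay outside the members. It covered 14.8 and 7.8 kb in early KO and 5.4 and 5.0 kb in early WT. The run at chr1:171978401-172023400 held 3 regions, with 6.2 and 5.8 kb of H3K27ac in late KO against 20.2 and 18.0 kb in late WT, of which 10 and 10.4 kb lay outside the members. It had 3.0 and 1.8 kb in early KO and 8.0 and 6.8 kb in early WT. DNase islands covered none of this run in either late KO list, and 4.4 and 5.6 kb in late WT. They covered 1.0 and 2.2 kb in early KO and 2.8 and 4.4 kb in early WT. The run at chr9:81817001-81842400, which starts with the widest region, was acetylated in the late WT lists alone, over 6.2 and 10.6 kb, and all of that lay in its 3 regions.

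DNase-seq was not used by the rule and gives a separate reading of the same regions. A DNase island lay in 21 (4.27%) and 18 (3.66%) of the 492 regions in the late KO libraries, and in 143 (29.1%) and 227 (46.1%) in late WT. The early KO libraries had one in 31 (6.30%) and 91 (18.5%), and early WT in 131 (26.6%) and 159 (32.3%). The means were 3.96% ± 0.43 in late KO, 37.6% ± 12.1 in late WT, 12.4% ± 8.6 in early KO and 29.5% ± 4.0 in early WT (SD, n = 2 libraries each). The late KO and late WT libraries did not overlap, whereas early WT replicate 2 was above the lower late WT library. Over all merged regions the means were 39.7%, 60.4%, 58.3% and 66.8% in the same order of groups. The 492 regions were thus less often open than merged regions in general, in every library. They were also narrower (median 2200 against 3200 bp), and the shares were not matched for width.

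The DNase lists differ in length, from 17397 islands in late KO replicate 2 to 39736 in early WT replicate 2, and a longer list reaches lower. When each list was cut to its 17397 highest-scoring islands, a DNase island remained in 3.05% and 3.66% of the regions in late KO and in 9.35% and 8.13% in late WT. It remained in 2.24% and 3.05% in early KO and in 3.25% and 3.86% in early WT. Both late WT libraries then stood above all other 6, while all merged regions had means of 38.6%, 39.9%, 39.5% and 40.4% in late KO, late WT, early KO and early WT. With the upper 50% of each list in place of equal lengths, 2 of the other 6 libraries stood above the lower late WT library (highest 6.71%, against 4.27%). The late WT mean was the highest of the 4 groups in all 3 cases, at 37.6%, 8.74% and 6.91%, against 29.5%, 3.56% and 5.69% in early WT. The separation of both late WT libraries from all other 6 rested on how the lists were made comparable. So did the place of late KO. Its mean was the lowest as deposited and with the upper 50%, but with equal lists early KO was lower (2.64% against 3.35%). No p-value is given, as this is a score over chosen regions.

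**Figure D3:**
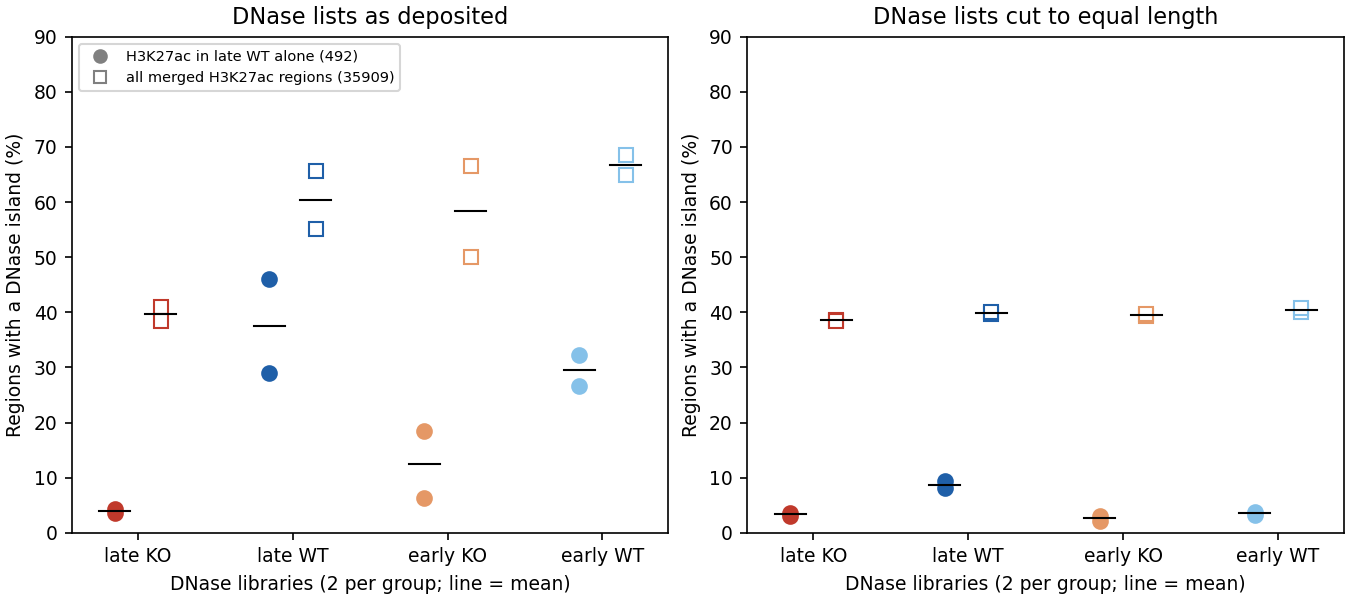
Share of regions with a DNase island (%, y axis) in each DNase library by group (x axis), with the lists as deposited (left) and cut to 17397 islands each (right). Filled circles are the 492 regions, open squares all merged regions, and lines are means of 2 libraries. With equal lists the late WT circles (9.35% and 8.13%) lie above all others (2.24% to 3.86%), and all circles lie far below the squares.

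The plot of DNase shares by library can be set beside that of regions chosen by the same rule for another group. Among the 376 regions acetylated in late KO alone, with equal DNase lists, 14.9% had a DNase island in late KO, against 3.06% in late WT, as means of 2 libraries. Among the 817 of early KO alone, 14.4% had one in early KO, against 6.00% in early WT. Among the 771 of early WT alone, the early WT mean was 1.04%, against 0.519% in late KO, 0.324% in early KO and 0.259% in late WT. These shares are low, so the order there rests on few regions. With equal lists the group that carried the acetylation had the highest DNase share of the 4 groups in each of these sets, as in the late WT one, at 8.74% ± 0.86 (SD, n = 2). For the late KO set this did not hold otherwise. With the lists as deposited 16.1% of it had an island in late KO, against 19.1% in late WT and 18.8% in early KO, and with the upper 50% of each list late KO was the lowest, at 1.60%, against 3.06% in late WT. The own-group share of the late WT set was below that of the late KO set with equal lists and above it with the lists as deposited and with the upper 50%. These sets share libraries, and the difference between them was not tested.

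**Figure D4:**
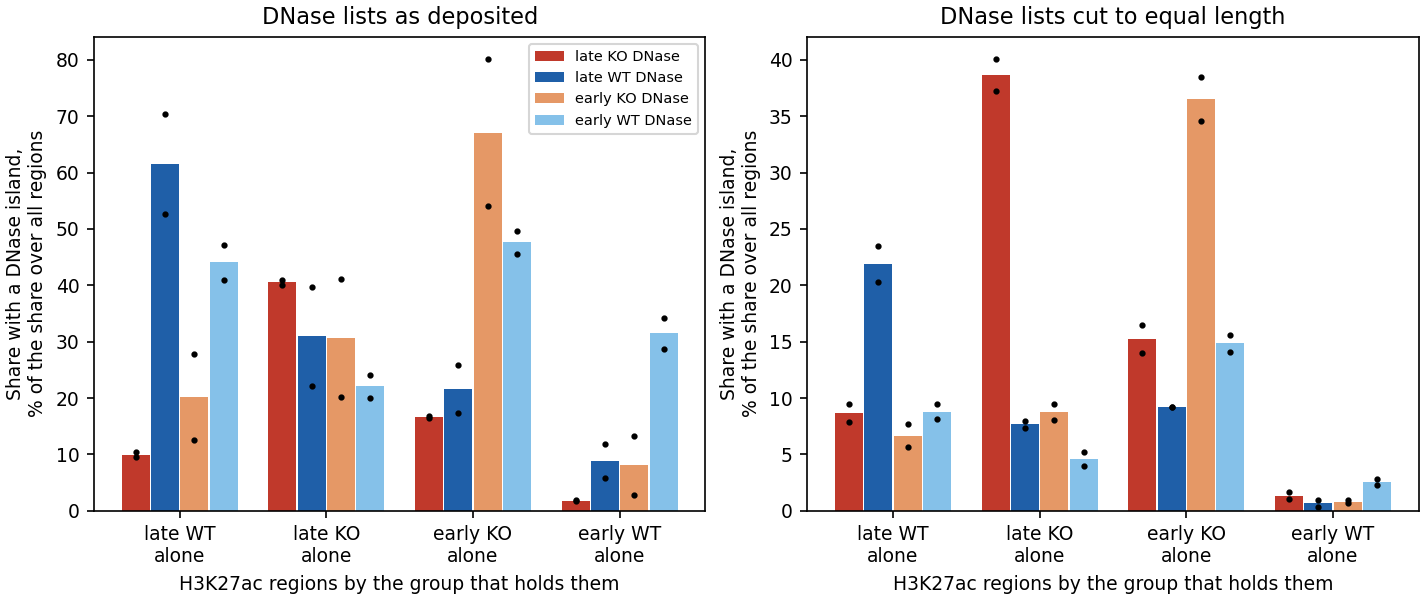
Share of regions with a DNase island as a percentage of that over all merged regions (y axis), for regions acetylated in late WT alone and in each other group alone (x axis), with DNase lists as deposited (left) and of equal length (right). Bars are means of 2 libraries, points single libraries, and colours the DNase groups. On the right, the bar of the group that carries the acetylation is the highest in each set.

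Around the regions, open chromatin peaked over the acetylated stretch. At the region centre, DNase islands covered 3.25% and 2.64% of the regions in late KO and 19.3% and 30.9% in late WT. They covered 4.67% and 12.2% in early KO and 17.9% and 24.4% in early WT. The DNase islands of late WT inside the regions had a median width of 800 bp and a median distance of 300 bp from the region centre, against 1400 bp and 700 bp in all merged regions. Their median percentiles in the DNase lists of late WT were 25.2 and 33.1, against 54.2 and 57.6 in all merged regions, so they were weak islands as well. The regions were narrower than merged regions in general (median 2200 against 3200 bp), which limits the distance from the centre. The smaller distance is therefore no measure of centring.

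**Figure D5:**
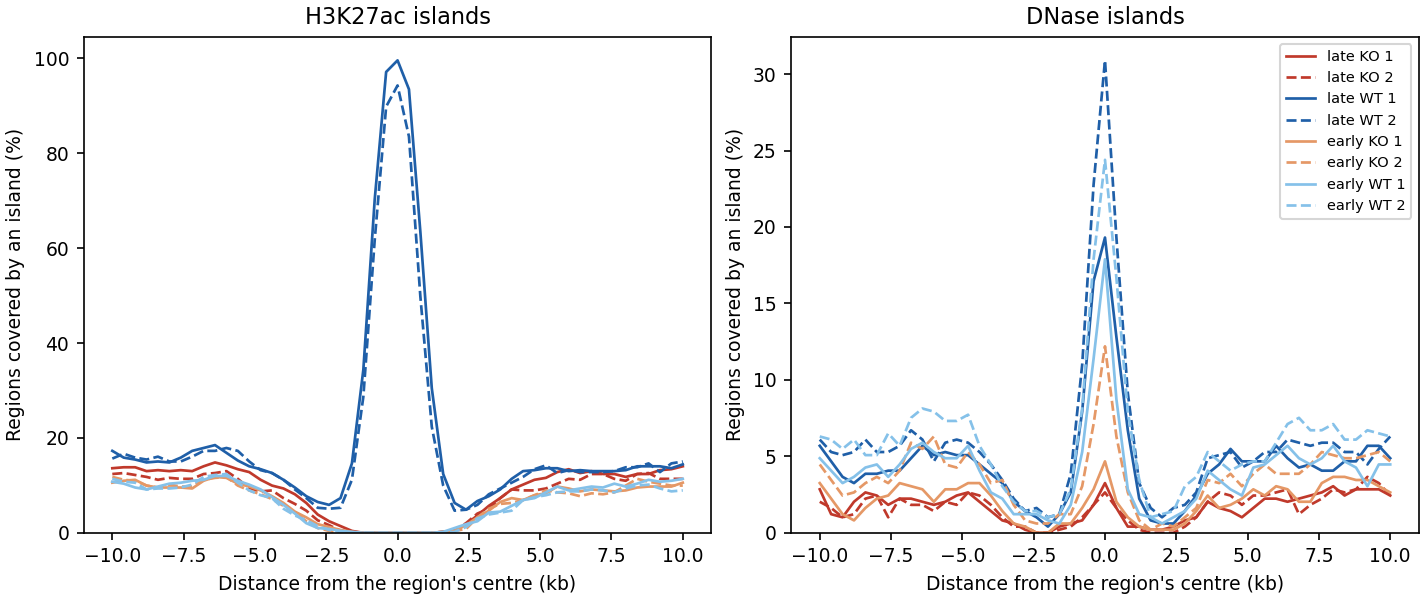
Share of the 492 regions covered by an island (%, y axis) at each distance from the region centre (kb, x axis), for H3K27ac (left) and DNase (right) in each library. The H3K27ac peak is set by the choice of regions. The DNase peak is highest in late WT replicate 2 (30.9%), followed by early WT replicate 2 (24.4%), and the late KO peaks (3.25% and 2.64%) barely stand above the flanks.

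The plot of distance profiles hides that the regions were of several kinds. No DNase list held an island in 227 of the 492 regions (46.1%), against 7550 of all merged regions (21.0%). Another 67 regions had one in a single list, and 8 (1.63%) in all 8 lists, against 32.5% of all merged regions. Both late WT libraries had an island in 138 regions, against 54.5% of all merged regions. Of the 492, 113 (23.0%) had one in both late WT and in neither late KO library, against 13.1% of all merged regions, and the late KO lists are the shortest of the 8. Another 11 (2.24%) had one in both late WT and both late KO libraries, against 34.0% of all. No region had an island in both late KO libraries and in neither late WT library, where 189 of all merged regions (0.526%) did. Both late WT and both early WT libraries had one in 84 (17.1%), against 51.5% of all, and both late WT and neither early WT library in 35 (7.11%), against 1.44% of all. In 30 regions (6.10%) the only DNase islands were those of both late WT libraries, as H3K27ac was, against 254 of all merged regions (0.707%). With equal lists 10 regions had this pattern, against 201 of all merged regions. None of the 10 was among these 30, and the cut had removed their DNase islands in other libraries.

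Regions open in both late WT libraries ranked much like the rest in H3K27ac. Their median width was 1800 bp and their median percentiles 9.28 and 21.0. The 260 regions with no DNase island in either late WT library had a median width of 2400 bp and median percentiles of 8.49 and 18.1. Of the 5 regions highest in H3K27ac, chr13:113864201-113868600, chr6:41890801-41895000 and chr4:104537201-104541000 had no DNase island in any library. chr17:71879601-71882200 had 1.0 and 0.6 kb of DNase islands in late WT and none elsewhere. chr13:113876801-113879000 had none in late KO or early KO, 0.4 and 0.4 kb in late WT, and 0.4 and 0.8 kb in early WT. So 2 of the 5 had an open site in late WT.

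Differences in DNase at single regions were tested with limma on log2(kb covered + 0.5) over all merged regions with a DNase island in at least 2 of the 8 libraries, with Benjamini-Hochberg adjustment over all 25850 regions tested. Of the 492 regions, 198 passed that filter and 294 were not tested. Of the 198, 30 passed only through the late WT libraries, so their counts cannot be read as support for a late WT excess. In late KO against late WT, 10 of the 198 (5.05%) were lower, where 4.39% of all regions tested were lower. None was higher, where 0.557% of all were, and an unadjusted p under 0.05 was found for 75 of the 198 (37.9%) and 5288 of all 25850 (20.5%). The members' share of lower calls was close to that of all regions here, but not without centring, where 28.8% of members and 9.40% of all regions were lower. The median difference turned with the filter: it was -0.77 on the log2 scale over the 198, against -0.23 over all tested, and 0.34 over the 492 with no filter, against 0.09 over all. Nothing is read from it. No member was called when any late KO, late WT or early WT library was left out. Without a late WT or early WT library no region at all was called, so those settings say nothing about the members in particular. Without late KO replicate 1 or 2, 755 and 272 of all regions were called. With DNase lists of equal length none of the 10 passed the filter, and 2 other members were called, 1 of them higher in late KO.

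All 10 had no DNase island in either late KO library, so the kb are given and no fold, and 7 of the 10 passed the filter only through the late WT libraries. chr5:23126001-23129400 had none in any late KO or early library and 2.4 and 1.4 kb in late WT, where its DNase islands stood at percentiles 33.9 and 39.7 (limma, adjusted p = 0.0271). chr16:49151601-49154400, the region without acetylated neighbours, likewise had 1.2 and 1.6 kb in late WT and none in the other 6 libraries (limma, adjusted p = 0.0256). chr6:84118601-84120400 had 1.2 and 1.2 kb in late WT and none elsewhere (limma, adjusted p = 0.0308). These 3 are among the 7 that entered the test only because both late WT libraries had an island there, so that DNase was listed in late WT alone is a description of them.

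A second kind was open in early WT too. chr1:130501801-130503800 had no island in late KO, with 1.2 and 1.6 kb in late WT, none in early KO, and 0.4 and 0.8 kb in early WT (limma, adjusted p = 0.0336). chr17:80490801-80492200 had none in late KO, with 1.0 and 1.2 kb in late WT, none in early KO, and 0.8 and 1.0 kb in early WT (limma, adjusted p = 0.0478). Here both WT groups had open sites and neither KO group did, though the acetylation was listed in late WT alone. That pattern, both WT stages in all 4 libraries and no KO library, held for 24 of the 492 regions (4.88%) and for 381 of all merged regions (1.06%). These counts are of the lists as deposited, where both late KO lists and early KO replicate 1 were shorter than any WT list. With equal lists, the mean share of the 492 regions with a DNase island was 3.56% in early WT, 3.35% in late KO and 2.64% in early KO. Of the alternative settings, 12 tested chr5:23126001-23129400 and 14 tested chr17:80490801-80492200, and neither region was called in all of them. Neither passed the filter with equal lists or with the upper 50% of each list. chr5:23126001-23129400 also failed the filter when either late WT library was left out.

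In late WT against early WT, 22 of the 198 regions (11.1%) were higher, where 0.843% of all regions tested were higher, and 4 (2.02%) were lower, where 2.45% of all were. Of these 26 regions, 20 passed the filter only through the late WT libraries, so the members' share of higher calls is no independent measure. No member was called when any late KO, late WT or early WT library was left out. Of all regions, 1 was called without late KO replicate 1 and none in the other such settings. The whole fit lost its calls there, so this says nothing about the members in particular. The late WT libraries are shared with the comparison to late KO, so the calls of one are no check on the other. chr14:74227801-74229600 had 1.6 and 0.8 kb in late WT and none in early WT (limma, adjusted p = 0.0386).

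The 4 lower regions, at a share near that of all regions, had their DNase islands in early WT and not in late WT. All 4 passed the filter only through the early WT libraries, so this is a description of them. chr6:71657401-71658600 had no DNase island in late WT and 1.2 and 1.2 kb in early WT (limma, adjusted p = 0.0227). chr13:111876001-111879200 had none in late WT and 0.6 and 1.8 kb in early WT (limma, adjusted p = 0.0487). The nearest H3K27ac island of the other groups was 68.0 and 124.2 kb from these. The other pair, given after its values were seen, was chr2:28225201-28227000 and chr4:48747201-48749200, at 75000 and 9400 bp from such an island.

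In late WT against the mean of the other 3 groups, 7 regions (3.54%) were higher, where 0.499% of all regions tested were, and none was lower, where 0.101% of all were. All 7 passed the filter only through the late WT libraries. An unadjusted p under 0.05 was found for 65 of the 198 (32.8%) and 4410 of all 25850 (17.1%). The 198 include the 30 that passed the filter only through the late WT libraries, so these shares are no independent measure. The late WT libraries again are shared with both other comparisons. The 7 include chr5:23126001-23129400, chr16:49151601-49154400 and chr6:84118601-84120400 (limma, adjusted p = 0.04 for each). chr1:130219001-130221200 and chr4:142848201-142850200 had 1.6 and 1.0 kb each in late WT and none in any other library (limma, adjusted p = 0.0434 for each). chr7:31520001-31522600 had 1.4 and 1.0 kb in late WT and none elsewhere (limma, adjusted p = 0.0429). All 7 were still called without centring and without early KO replicate 2, and in no other setting fitted on regions. With DNase lists of equal length none of the 7 passed the filter, and the 7 members called there were other regions.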

How the data were processed

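H3K27ac ChIP-seq and DNase-seq libraries (16 in all) were grouped by the labels. CASAVA 2.18, Bowtie2, SICER 1.1 and the build mm9 are named in the submitters' processing notes. The SICER caller builds islands from enriched 200-bp windows, and 1 list per library was deposited. Each deposited list gives an island's position and a score, the authors' own value, used only to rank islands within a list. Control libraries and read numbers are not given in the sources used here. Whether replicates were separate cultures or animals is not stated in the labels. The p-values therefore reflect only how far these libraries differ, and that difference may be technical.

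Islands were merged and intersected in Python 3.11.15 with numpy 2.4.6 and pandas 2.3.3 (figures, matplotlib 3.10.9). A percentile is an island's mid-rank by score within its list. The DNase fit used limma 3.58.1 in R 4.3.3 (lmFit, eBayes with a trend), with all 4 groups fitted together, a pseudocount of 0.5 kb, libraries centred on the median of regions covered in all 8, and calls at an adjusted p under 0.05. The fit was tried on simulated data drawn without a floor, so this is no check on regions where a whole group had no island. At a region where a group had no island in either list, that group's spread reflects only the floor and the centring. "Higher", "lower" and "called" refer to this threshold. The members, settings and tests were chosen with earlier results of these data known. Named regions were the highest and lowest by mean percentile, the widest, those open in late WT alone, the called ones by size of change, the longest runs and the nearest misses, of which the text gives the first few or a selection. The only gene and sequence tables at hand were of another build and were not used, so no sequence is printed.

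Alternatives were lists of equal length, the upper 50% of each list, islands within 1 kb merged, at least 50% of a region or 400 bp covered, 1 kb added on each side, 10-kb bins, no centring, quantile normalization, a pseudocount of 2 kb, no filter, a replicate block and each library left out.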

Additional observations from a re-analysis of the deposited data

How the results depend on the processing

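Against 492 regions as reported, 203 met the rule with the upper 50% of each H3K27ac list and 0 with the upper 50% of the late WT lists alone. Leaving out 1 library gave 499 to 1451, the highest without late WT replicate 1. All other settings stayed within 1.5 times. As reported, 198 members and 25850 regions were tested. With equal lists these were 42 and 17362, and with the upper 50% 32 and 16724. With 1 kb added they were 203 and 26061, and with no filter 492 and 35909. Members called by limma in late KO against late WT (10) numbered 2 with equal lists, 0 with the upper 50%, 5 with 1 kb added, 57 with no centring, 0 with quantile normalization, 0 with a pseudocount of 2 kb, 4 with no filter, and 0 to 24 without 1 library. Calls over all regions (1279) numbered 910, 1257, 927, 2539, 157, 245 and 814 in that order, and 0 to 2422 without 1 library. In late WT against early WT (26) the members called numbered 8, 4, 15, 32, 0, 9 and 23 in that order, and 0 to 30 without 1 library. Calls over all regions (851) numbered 974, 1050, 714, 1116, 0, 502 and 700, and 0 to 1597 without 1 library. In late WT against the other groups (7) the members called numbered 7, 0, 0, 39, 0, 0 and 0, and 0 to 14 without 1 library, and 0 with 10-kb bins. Calls over all regions (155) numbered 811, 145, 0, 996, 0, 14 and 0, and 0 to 519 without 1 library, and 0 with 10-kb bins. With quantile normalization, where limma called no member, 7.58%, 28.3% and 21.2% of members had an unadjusted p under 0.05 in the 3 comparisons, against 13.7%, 11.4% and 11.5% of all regions. Of the 198 members, 30 passed the filter only through late WT, so these shares are no independent measure. With no filter, limma gave 13.2%, 10.6% and 12.8% of members, against 14.5%, 8.77% and 12.1% of all regions. Scaling moved the median log2 difference of all regions in late KO against late WT to 0.13 with equal lists and -0.57 with no centring, against -0.23, and the members' median was below it in both (-0.36 and -1.10) but above it with no filter (0.34 against 0.09). Members lower in late KO were 28.8% with no centring, against 9.40% of all regions, and 1.01% with a replicate block, against 2.16%.

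With a replicate block, the members called numbered 2, 9 and 0 in the 3 comparisons, and the calls over all regions 640, 434 and 0. Replicate numbers share no stated source. The difference of replicate 1 minus replicate 2 within a group correlated between groups at -0.0049 to 0.0927, so the numbers were not read as pairs. The share of regions with DNase was 3.35%, 8.74%, 2.64% and 3.56% in late KO, late WT, early KO and early WT with equal lists, and 0.711%, 6.91%, 2.24% and 5.69% with the upper 50%. Single libraries ranged over 3.66% to 4.27%, 29.1% to 46.1%, 6.30% to 18.5% and 26.6% to 32.3%. Depth is unknown, and both the H3K27ac and the DNase islands of these regions lie low in their lists.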
